A study of Homo sapiens with 12 samples.

Results

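The transcripts described here are those of NFE2L2, which encodes the transcription factor NRF2, of its inhibitor KEAP1, and of 8 antioxidant target genes of NRF2, namely HMOX1, GCLM, GCLC, NQO1, SRXN1, OSGIN1, TXNRD1 and GSR. They were taken by gene symbol, 10 of the 22257 genes in the count tables, with 1 transcript per gene. All 10 passed the filter on low counts. The cells were LN229, an established human glioblastoma line, grown to 80% confluence and then held for 24 hours in RPMI with 10% dialyzed serum. The medium of the first group held 10 mM glucose and no added acetate, that of the second 1 mM glucose with 5 mM acetate, and that of the third 1 mM glucose alone, with 4 libraries in each and 12 in all. Nothing in the labels tells whether replicates came from separate cultures, and a p here therefore reflects variation among these libraries, which may be technical. The comparisons ask how these transcripts depend on glucose supply and what acetate does to them when glucose is low.

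NRF2 is held at a low level in unstressed cells by KEAP1, an adaptor that brings it to the CUL3 ubiquitin ligase for degradation by the proteasome. Oxidants and electrophiles modify cysteines of KEAP1, NRF2 then escapes degradation, pairs with a small MAF protein and binds antioxidant response elements (AREs) near its targets. BACH1, a repressor that heme removes from DNA, competes for the same elements, above all at HMOX1. NRF2 is therefore set largely at the protein level, which was not measured here.

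Levels are given as CPM, the counts of a gene scaled by the TMM-adjusted total of its library, and library totals ran from 24.4 to 27.2 M counts. Fold changes are log2 differences, first-named group minus second-named group, with a standard error (SE). For edgeR this SE was derived from the fold change and the F statistic of the quasi-likelihood test. A gene counts as called at an edgeR quasi-likelihood p under 0.05 after Benjamini-Hochberg adjustment across 14416 tested genes. 1 mM replicate 3 and acetate replicate 1 stood apart from the others. Their Spearman correlation of deviation from the mean with transcript length, across genes, was −0.491 and −0.487, against −0.179 to 0.231 in the other 10 libraries. It was 0.111 to 0.231 at 10 mM glucose. In 1 mM replicates 1, 2 and 4 it was −0.0692, 0.147 and −0.179, and in acetate replicates 2, 3 and 4 0.00579, 0.142 and 0.207. The trend was thus not spread evenly over the groups. Of 9 glioma and astrocyte markers, VIM and CD44 averaged 3768 and 759 CPM at 10 mM glucose, 4473 and 980 CPM in the acetate group and 5249 and 1049 CPM at 1 mM glucose, while GFAP averaged 0.848, 1.14 and 0.98 CPM in the same groups and AQP4 at most 0.129 CPM. Other markers of that list ran the other way. In the order of 10 mM glucose, acetate and 1 mM glucose, NES averaged 1053, 492 and 452 CPM, SOX2 75.4, 17.7 and 14.3 CPM, and S100B 186, 121 and 86.6 CPM. Of 8 tested, 3 were called higher and 4 lower at 10 mM than at 1 mM glucose, and 2 higher and 2 lower with acetate. The 9 summed to 5891 to 6006 CPM at 10 mM glucose, 6047 to 6494 CPM with acetate and 6454 to 7717 CPM at 1 mM glucose, and the part of these shifts in the results was not tested. The summed level of 8 markers of blood, endothelium, microglia, neurons and liver stayed between 1.03 and 2.11 CPM in the 12 libraries. In the order above, VWF averaged 0.873, 0.94 and 0.302 CPM and was called higher in both comparisons with 1 mM glucose. PTPRC ran the other way with 0.146, 0.263 and 0.447 CPM. VWF alone of this list was tested, and all of these levels lie near the floor.

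The promoter sequences below show which of these genes carry a core ARE close to a transcript start. RefSeq promoter windows on GRCh38.p14 matched 8 of the 10 genes, in 11 windows, and did not include HMOX1 or GSR. The 250 bases before each start were searched on both strands for the core TGACNNNGC, and for TGANTCA, the site of AP-1, which overlaps the ARE where the 2 cores coincide. The ARE core was found in 4 of the 11 windows, at GCLM, TXNRD1 and KEAP1, and in 10.9% of all 35116 RefSeq windows of that length. The AP-1 site was found in 1 of the 11, at OSGIN1, and in 6.57% of all windows. These are matches of letters and not measured binding sites. Each site is shown with 10 bases on either side, on the strand that reads the core, with the core in capitals.
GCLM site: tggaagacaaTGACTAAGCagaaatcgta
TXNRD1 upstream start: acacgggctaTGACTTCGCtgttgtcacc
TXNRD1 downstream start: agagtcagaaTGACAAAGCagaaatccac
KEAP1 first site: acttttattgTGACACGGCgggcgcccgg
KEAP1 second site: caggtcaccaTGACTAAGCagagccgggc
OSGIN1 AP-1 site: gggcccctgcTGACTCAcgcttatgaa
Coordinates in brackets here cover each core or site with its 10 bases on either side. The GCLM core lies 34 to 26 bases before the start (chr1:93909446-93909474, + strand). The TXNRD1 cores lie 99 to 91 bases before the upstream start (chr12:104215670-104215698, + strand) and 102 to 94 bases before the downstream start (chr12:104286920-104286948, - strand). The KEAP1 cores lie 54 to 46 (chr19:10502807-10502835, - strand) and 31 to 23 bases (chr19:10502784-10502812, + strand) before the same start, and the second reads TGACTAAGC, the same 9 letters as at GCLM. The OSGIN1 site lies 97 to 91 bases before the start (chr16:83953133-83953159, + strand).

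The longer upstream stretches of GCLM and OSGIN1 are shown as examples of windows with a marked site. Both transcripts fell in both comparisons with 1 mM glucose, and so did others. Among these are TXNRD1, which has ARE cores, and GCLC, SRXN1 and NFE2L2, whose windows held neither motif. KEAP1, which has ARE cores, was not called for 10 mM against 1 mM glucose. A link between these letters and the levels was not tested. The stretches are written 5′ to 3′ on the strand of the gene, so the GCLM core appears as its reverse complement. Capitals mark that core and the OSGIN1 AP-1 site.
GCLM: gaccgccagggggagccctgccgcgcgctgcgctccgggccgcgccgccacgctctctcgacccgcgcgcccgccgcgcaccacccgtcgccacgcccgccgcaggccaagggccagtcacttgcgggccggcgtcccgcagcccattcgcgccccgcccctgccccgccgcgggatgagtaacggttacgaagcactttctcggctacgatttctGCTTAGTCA
OSGIN1: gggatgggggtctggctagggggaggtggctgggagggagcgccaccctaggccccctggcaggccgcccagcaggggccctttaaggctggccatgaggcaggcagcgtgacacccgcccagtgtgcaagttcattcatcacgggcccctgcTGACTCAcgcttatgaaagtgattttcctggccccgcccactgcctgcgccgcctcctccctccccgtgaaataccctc
The GCLM stretch covers 225 bases at chr1:93909456-93909680 on the - strand and holds 74.7% G and C. The OSGIN1 stretch covers 232 bases at chr16:83952990-83953221 on the + strand and holds 66.8% G and C.

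High glucose was accompanied by lower levels of 8 of the 10 transcripts and a higher level of 1, NQO1, while KEAP1 was not called. Over all genes tested, 33.8% were called lower at 10 mM glucose than at 1 mM and 33.7% higher, 67.5% in all, so a call by itself was common in this comparison. By at least 1 on the log2 scale, 5 of the 10 were lower (HMOX1, OSGIN1, SRXN1, TXNRD1 and GCLM), against 6.81% of all genes. The median log2 fold change of the 10 was −1.06, against 0.00 over all genes. In bulk RNA, fewer cells of a kind and less RNA per cell cannot be told apart. The libraries did not overlap in 9 of the 10, against 61.5% of all genes. Of these 9, 8 lay lower and 1 higher, against 30.3% and 31.1% of all genes, and no member rose by 1 or more, against 6.84% of all genes. Scaling by library totals in place of TMM moved the median of all genes by 0.14 and the share of calls that were higher to 63.3%, against 49.9% with TMM, and left the split of the 10 at 8 lower and 1 higher.

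Acetate at 1 mM glucose was accompanied by lower levels of 9 of the 10 transcripts and a higher level of none, and GSR was not called. Over all genes 7.09% were called lower with acetate, 6.65% higher and 13.7% in either direction. The median log2 fold change of the 10 was −0.33, against 0.00 over all genes. HMOX1 and OSGIN1 were lower by at least 1 on the log2 scale, a size that 0.479% of all genes reached, and no member rose by that much, against 0.222% of all genes. The libraries did not overlap in 8 of the 10, against 15.6% of all genes. All 8 lay lower, against 8.2% of all genes that lay lower and 7.35% that lay higher. With only the 8 libraries compared in the fit, 6 of the 10 were called, and the calls of GCLC, NQO1 and KEAP1 ended. All genes called in that fit numbered 1056, against 1980 with all 12 libraries. With library totals the median of all genes moved to 0.04 and the share of higher calls to 65.2%, against 48.4% with TMM.

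Setting 10 mM glucose directly against acetate tests whether the other 2 comparisons, which share the 1 mM libraries, differ from each other. All 10 transcripts were called, 8 lower and 2 higher (NQO1 and KEAP1) at 10 mM glucose, against 62.8% of all genes called in either direction, 31.8% lower and 31% higher. The libraries of these groups did not overlap in any of the 10, against 61% of all genes, 30.1% lower and 30.8% higher. By at least 1 on the log2 scale 4 of the 10 were called lower, against 5.51% of all genes, and none higher, against 4.68%. With library totals the median of all genes was 0.10 and the share of higher calls 60.8%, against 49.4% with TMM.

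**Figure D1:**
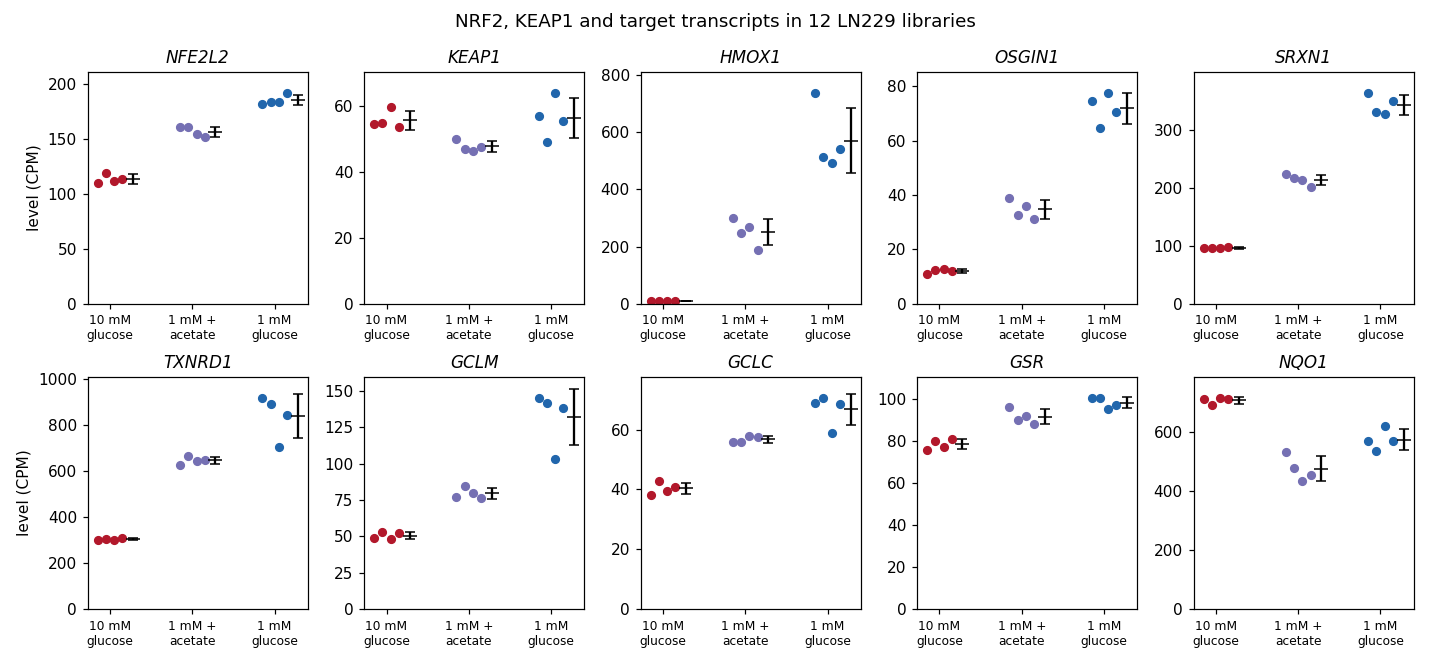
Level in CPM (y axis, from 0) of the 10 transcripts in each of the 12 libraries (points), by group (x axis), with mean ± SD beside the points (n = 4). In 8 genes the 10 mM glucose libraries lie lowest and the mean is highest at 1 mM glucose, while NQO1 is highest at 10 mM glucose and KEAP1 lowest with acetate.

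NFE2L2 itself was lower both at 10 mM glucose and with acetate than at 1 mM glucose alone. Its level was 109, 119, 112 and 113 CPM in the 10 mM glucose libraries, 160.1, 160.1, 154 and 151 CPM with acetate, and 181, 184, 183 and 191 CPM at 1 mM glucose. The 3 groups did not overlap, with the acetate libraries between the others. The log2 fold change was −0.71 ± 0.05 for 10 mM against 1 mM glucose (SE, edgeR adjusted p = 6.1e-09), −0.24 ± 0.05 for acetate (adjusted p = 0.0035) and −0.46 ± 0.05 for 10 mM glucose against acetate (adjusted p = 7.6e-07). The 3 RefSeq transcripts of NFE2L2 had nearly the same total count, so the counts do not tell its isoforms apart. That held for the members in general. The 4 with 1 transcript are HMOX1, GCLM, SRXN1 and OSGIN1, and in the 6 with several the 13 other transcripts held 92.6% to 100% of the count of the one used.

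KEAP1 had 54.5, 54.8, 59.8 and 53.6 CPM at 10 mM glucose, 50.2, 47.1, 46.5 and 47.7 CPM with acetate, and 57, 49.1, 64 and 55.6 CPM at 1 mM glucose. The 1 mM libraries spanned the 10 mM libraries, and the lowest of them lay among the acetate libraries, with the highest value in replicate 3. For 10 mM against 1 mM glucose the log2 fold change was −0.02 ± 0.07 (SE, edgeR adjusted p = 0.817), with its sign turned by leaving out 1 mM replicate 3 (0.05) and by library totals (0.12). KEAP1 was called lower with acetate, −0.24 ± 0.07 (adjusted p = 0.0392), and higher at 10 mM glucose than with acetate, 0.22 ± 0.07 (adjusted p = 0.0151). The acetate call ended in 12 of 25 alternatives, with adjusted p from 0.0011 to 0.106 over all of them. Among these were the omission of 1 mM replicate 1, 3 or 4, of acetate replicate 2, 3 or 4, and of 10 mM replicate 1, 2 or 4. Without 10 mM replicate 3 the call against acetate ended as well (adjusted p = 0.0552).

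Per length of transcript, NFE2L2 stood above KEAP1 in every library. The ratio of their CPM per kb was 1.87 to 2.17 at 10 mM glucose, 3.17 to 3.40 with acetate and 2.86 to 3.73 at 1 mM glucose. The 10 mM libraries lay below all the others, and the acetate libraries lay within the span of the 1 mM libraries. The ratio is one of transcripts, and the proteins were not measured.

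HMOX1, the inducible heme oxygenase that opens the heme ring and releases iron, carbon monoxide and biliverdin, had the widest range of the 10. It was at 9.29, 10.7, 11.3 and 9.68 CPM in the 10 mM glucose libraries, 300, 248, 268 and 190 CPM with acetate, and 737, 514, 491 and 541 CPM at 1 mM glucose. The groups lay far apart, and within the low-glucose groups 1 mM replicate 1 stood above its group and acetate replicate 4 below. The level fell 55.7-fold at 10 mM glucose (log2 fold change −5.80 ± 0.17, SE, edgeR adjusted p = 1.2e-12) and 2.27-fold with acetate (−1.18 ± 0.14, adjusted p = 9.8e-05). At 10 mM glucose it was 24.5-fold lower than with acetate (−4.61 ± 0.16, adjusted p = 1.2e-11). Its coefficient of variation was 9.02% at 10 mM glucose, 18.4% in the acetate group and 19.8% at 1 mM glucose. Without 1 mM replicate 1 the acetate value was −1.04 (adjusted p = 2.7e-04), and over all 25 alternatives it lay between −1.35 and −1.04.

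OSGIN1, an oxidative stress gene whose product restrains growth, followed the same order. Its libraries held 11, 12.6, 12.9 and 11.9 CPM at 10 mM glucose, 39, 32.6, 36.1 and 31.2 CPM with acetate, and 74.8, 64.6, 77.6 and 70.7 CPM at 1 mM glucose. No library of one group reached another group. OSGIN1 fell 5.93-fold at 10 mM glucose (−2.57 ± 0.09, SE, edgeR adjusted p = 4.0e-12) and 2.07-fold with acetate (−1.05 ± 0.08, adjusted p = 3.5e-06).

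In the thioredoxin system, SRXN1 encodes sulfiredoxin, which repairs overoxidized peroxiredoxins, and TXNRD1 the cytosolic thioredoxin reductase. SRXN1 was at 95.8, 95.9, 95.5 and 97.6 CPM at 10 mM glucose, 223, 217, 214 and 202 CPM with acetate, and 363, 330, 327 and 349 CPM at 1 mM glucose. The groups did not overlap, and the 10 mM libraries had a coefficient of variation of 0.962%, the lowest among the 10 genes and 3 groups. SRXN1 fell 3.56-fold at 10 mM glucose (−1.83 ± 0.05, SE, edgeR adjusted p = 7.5e-13) and 1.6-fold with acetate (−0.68 ± 0.05, adjusted p = 3.2e-06).

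TXNRD1 held 299, 303, 300.3 and 310 CPM at 10 mM glucose, 627, 665, 646 and 651 CPM with acetate, and 918, 891, 707 and 845 CPM at 1 mM glucose. Replicate 3 was the lowest 1 mM library and still lay above every acetate library. TXNRD1 fell 2.77-fold at 10 mM glucose (−1.47 ± 0.07, SE, edgeR adjusted p = 1.5e-10) and 1.3-fold with acetate (−0.38 ± 0.07, adjusted p = 0.0024). Without both libraries that stood apart the acetate value was −0.44 ± 0.04 (adjusted p = 4.5e-07).

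**Figure D2:**
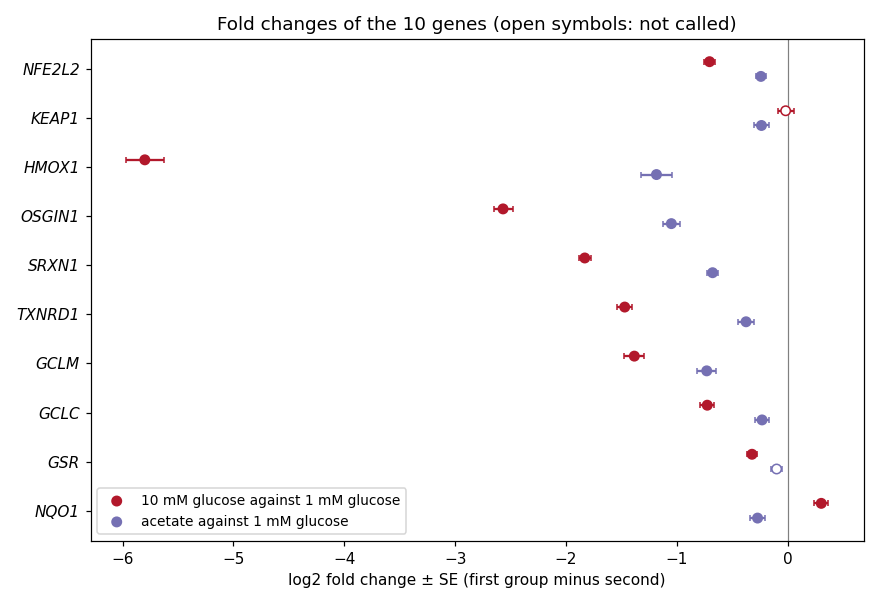
Log2 fold change ± SE (x axis) of the 10 genes (y axis) for 10 mM against 1 mM glucose and for acetate against 1 mM glucose. Filled symbols were called and open symbols were not, namely KEAP1 for glucose and GSR for acetate. Both comparisons share the 1 mM libraries.

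Glutathione is made in a first, limiting step by glutamate-cysteine ligase, whose catalytic subunit is GCLC and whose modifier subunit, GCLM, raises its efficiency. GCLM was at 49, 52.7, 48.4 and 52.2 CPM at 10 mM glucose, 77.2, 84.8, 79.6 and 76.6 CPM with acetate, and 145, 142, 103 and 138 CPM at 1 mM glucose. The groups did not overlap, and 1 mM replicate 3 stood far below its group. GCLM fell 2.61-fold at 10 mM glucose (−1.38 ± 0.09, SE, edgeR adjusted p = 4.8e-09) and 1.66-fold with acetate (−0.73 ± 0.09, adjusted p = 1.3e-04). Leaving out 1 mM replicate 3 gave −1.49 and −0.83.

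GCLC held 38.3, 42.8, 39.4 and 40.9 CPM at 10 mM glucose, 55.7, 55.9, 57.9 and 57.7 CPM with acetate, and 68.8, 70.5, 59 and 68.8 CPM at 1 mM glucose. Replicate 3 was again the lowest 1 mM library, just above the acetate libraries. GCLC fell 1.65-fold at 10 mM glucose (−0.73 ± 0.06, SE, edgeR adjusted p = 8.4e-08) and 1.18-fold with acetate (−0.23 ± 0.06, adjusted p = 0.0206). The acetate call ended without 1 mM replicate 1 (adjusted p = 0.0626) or 4 (0.065), without acetate replicate 2 (0.0594) and with only the 8 libraries compared (0.0741), over a range of 3.8e-04 to 0.0741.

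The balance of both subunit transcripts differed between the groups. Per length, the ratio of GCLC to GCLM was 0.996, 1.03, 1.04 and 0.996 at 10 mM glucose, 0.919, 0.84, 0.927 and 0.96 with acetate, and 0.604, 0.633, 0.727 and 0.634 at 1 mM glucose. The 3 groups did not overlap, and 1 mM replicate 3, which had the lowest GCLM, had the highest ratio of its group.

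**Figure D3:**
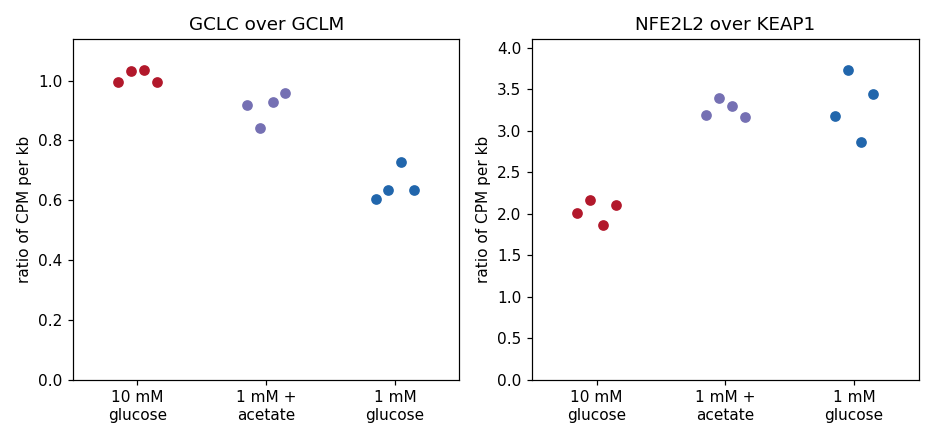
Ratio of CPM per kb in each library (points, y axis from 0) by group (x axis), for GCLC over GCLM on the left and NFE2L2 over KEAP1 on the right. The left ratio is lowest at 1 mM glucose (0.604 to 0.727), and the right ratio is lowest at 10 mM glucose (1.87 to 2.17).

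GSR, glutathione reductase, which returns oxidized glutathione to its reduced form with NADPH, differed little between the groups. It was at 75.9, 80.2, 77.5 and 81.3 CPM at 10 mM glucose, 96.4, 90.4, 92.1 and 88.4 CPM with acetate, and 101, 101, 95.3 and 97.5 CPM at 1 mM glucose. The 10 mM libraries lay below all the others, while acetate replicate 1 lay inside the 1 mM group. GSR fell at 10 mM glucose (log2 fold change −0.32 ± 0.05, SE, edgeR adjusted p = 2.8e-05). The acetate value was −0.10 ± 0.05 (adjusted p = 0.177), and without both libraries that stood apart −0.14 ± 0.05 (adjusted p = 0.0294).

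NQO1, the quinone reductase that is a standard readout of NRF2, was the exception in the glucose comparison. It had 710, 689, 713 and 710 CPM at 10 mM glucose, 531, 477, 434 and 453 CPM with acetate, and 570, 534, 618 and 568 CPM at 1 mM glucose. The 10 mM libraries lay above all the others, and the highest acetate library lay just below the lowest 1 mM library. NQO1 rose 1.23-fold at 10 mM glucose (0.30 ± 0.06, SE, edgeR adjusted p = 7.6e-04), between 0.27 and 0.44 over 25 alternatives and called in each. With acetate it was called lower, −0.27 ± 0.06 (adjusted p = 0.0119), a call that ended with only the 8 libraries compared (adjusted p = 0.0587). At 10 mM glucose NQO1 was 1.49-fold higher than with acetate (0.57 ± 0.06, adjusted p = 2.2e-06).

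Per length, these changes reordered the 10 transcripts. At 10 mM glucose NQO1 was highest with 242 CPM per kb, followed by TXNRD1 (76.3), NFE2L2 (42.8), SRXN1 (35.7), GSR (24.7), KEAP1 (21), GCLC (10.6), GCLM (10.4), OSGIN1 (6.25) and HMOX1 (5.62), in mean CPM per kb. With acetate the 3 highest means were TXNRD1 (163), NQO1 (163) and HMOX1 (138). At 1 mM glucose HMOX1 was highest with 313 CPM per kb, followed by TXNRD1 (211), NQO1 (197) and SRXN1 (127), and GCLC was lowest with 17.5. HMOX1 thus held the last place at 10 mM glucose and the first at 1 mM. The 8 targets added up to 1287 to 1313 CPM at 10 mM glucose, 1749 to 1949 CPM with acetate and 2479 to 2978 CPM at 1 mM glucose.

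Within groups the members did not all vary together. Over the deviations of the 12 libraries from their group means, the 45 pairs of members had Pearson correlations from −0.746 to 0.953, given here as a description. GCLM, TXNRD1 and GCLC formed one set, with r = 0.953 for GCLM and TXNRD1, 0.862 for GCLM and GCLC and 0.823 for GCLC and TXNRD1, and all 3 were lowest in 1 mM replicate 3. HMOX1 and SRXN1 had r = 0.844, and HMOX1 and OSGIN1 0.667, with 1 mM replicate 1 and acetate replicate 1 on the high side for HMOX1. KEAP1 ran opposite to GCLM (r = −0.746) and with NQO1 (0.705). The points share libraries, and the length trend of 1 mM replicate 3 moved with them. Its part in these correlations was not tested.

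**Figure D4:**
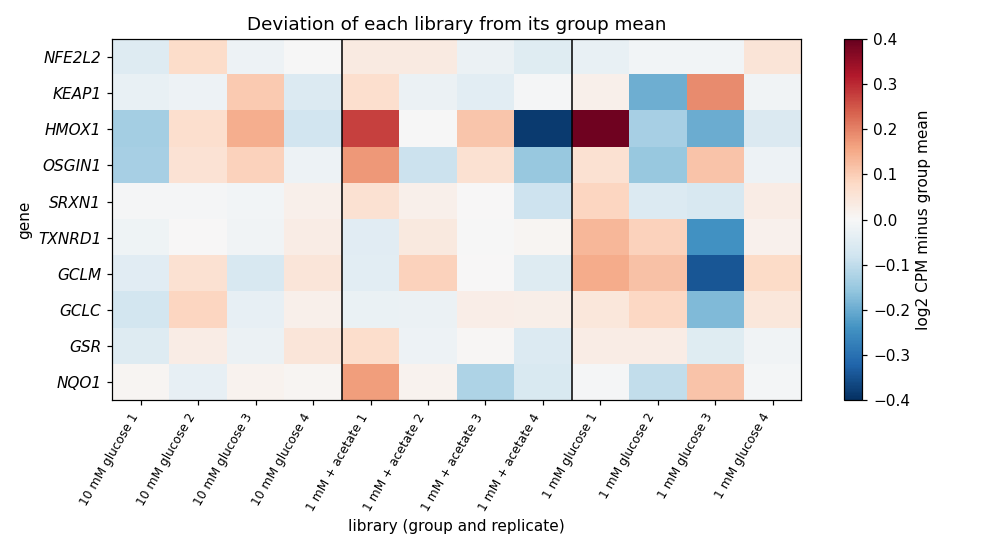
Log2 CPM of each library minus the mean of its group (colour scale) for the 10 genes (rows) in the 12 libraries (columns, by group and replicate). HMOX1 deviates most, from −0.38 in acetate replicate 4 to 0.39 in 1 mM replicate 1, and GCLM, TXNRD1 and GCLC share their lowest value in 1 mM replicate 3.

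By the mean absolute difference in centred log2 CPM over the 12 libraries, among 11190 genes that averaged at least 5 CPM, the genes most like HMOX1 were SPRR2D (0.175), HSPA6 (0.215) and GDF15 (0.349). HSPA6, a stress-induced heat shock protein, averaged 5.70 ± 0.192 CPM at 10 mM glucose, 119 ± 28.2 CPM with acetate and 401 ± 136 CPM at 1 mM glucose (SD, n = 4). In the same order SPRR2D averaged 0.701, 20.1 and 53.0 CPM, so its level at 10 mM glucose lay near the floor. GDF15 averaged 9.21, 359 and 445 CPM, and its fall with acetate was smaller than that of HMOX1. Both SPRR2D and HSPA6 belong to families of similar sequence, so their counts may include reads of relatives. Nearest to SRXN1 were AVEN (0.0698), IQCG (0.0699) and DNER (0.0723), and nearest to NFE2L2 were RANBP9 (0.0262), DERL1 (0.0308) and MARK3 (0.0334), each by the same measure. RANBP9 averaged 59.3 ± 1.52 CPM at 10 mM glucose, 84.9 ± 0.487 CPM with acetate and 100.1 ± 3.29 CPM at 1 mM glucose (SD, n = 4).

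The counts for the other lists of the pathway stand against all genes tested, of which 33.8% were lower and 33.7% higher at 10 mM than at 1 mM glucose, 67.5% in all, and 7.09% lower and 6.65% higher with acetate, 13.7% in all, each with a median of 0.00. Among the partners and regulators of NRF2, 8 of 12 were lower and 3 higher at 10 mM glucose (median −0.89). The small MAF genes MAFF (−2.42 ± 0.07, SE, edgeR adjusted p = 1.1e-12), MAFK (−2.06) and MAFG (−0.93) fell. SQSTM1, the autophagy receptor p62 that sequesters KEAP1, averaged 345 ± 17.6 CPM at 10 mM glucose and 1726 ± 120 CPM at 1 mM glucose (SD, n = 4), a log2 fold change of −2.32 ± 0.07. SYVN1, the ER ubiquitin ligase HRD1, fell by 2.03 and the repressor BACH1 by 0.98 on the log2 scale. CUL3, of the ligase that KEAP1 serves, fell by 0.15, and its partner RBX1 had 0.13 (edgeR adjusted p = 0.304). The 3 that rose were BACH2 (1.21), BTRC (0.39), an adaptor of a second NRF2 ligase, and NFE2L3 (0.34). With acetate (median −0.11) 3 of the 12 were lower, against 7.09% of all genes, MAFK (−0.63 ± 0.07), SQSTM1 (−0.56 ± 0.07) and MAFF (−0.45 ± 0.07), and NFE2L3 was higher (0.30). MAFG (−0.14) and BACH1 (−0.06) were not called, with adjusted p = 0.115 and 0.775. Without both libraries that stood apart 7 of the 12 were called with acetate, while the calls over all genes rose from 1980 to 3728.

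Of 21 tested of 23 genes of glutathione supply and use, 11 were lower and 1 higher at 10 mM glucose (median −0.17). Over all genes 33.8% were lower and 33.7% higher, 67.5% in all. CHAC1, which breaks glutathione down, fell by 3.33 on the log2 scale. Both chains of the cystine importer fell, SLC3A2 to 310 ± 12.8 CPM at 10 mM glucose, against 1333 ± 116 CPM at 1 mM glucose (SD, n = 4), and SLC7A11 to 141 ± 7.82 CPM at 10 mM glucose, against 497 ± 113 CPM at 1 mM glucose. GLRX2, the mitochondrial glutaredoxin, fell by 1.68, and GSTA4, which conjugates lipid aldehydes, rose by 1.13. With acetate (median −0.12), where 13.7% of all genes were called, 4 of the 21 were lower, namely CHAC1 (−0.40), SLC3A2 (−0.36), MGST1 (−0.37) and GLRX (−0.32), and GSTA4 was higher (0.51 ± 0.08, SE). SLC7A11 had −0.12 ± 0.14 with acetate (edgeR adjusted p = 0.596). The count of 5 called with acetate was 3 when 1 of 4 libraries (1 mM replicates 1 and 4, acetate replicates 3 and 4) was left out. It was 9 with the length and GC trend removed. Calls over all genes moved too, from 1980 to between 1196 and 1318 in these omissions and to 3911 with the trend removed.

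**Figure D5:**
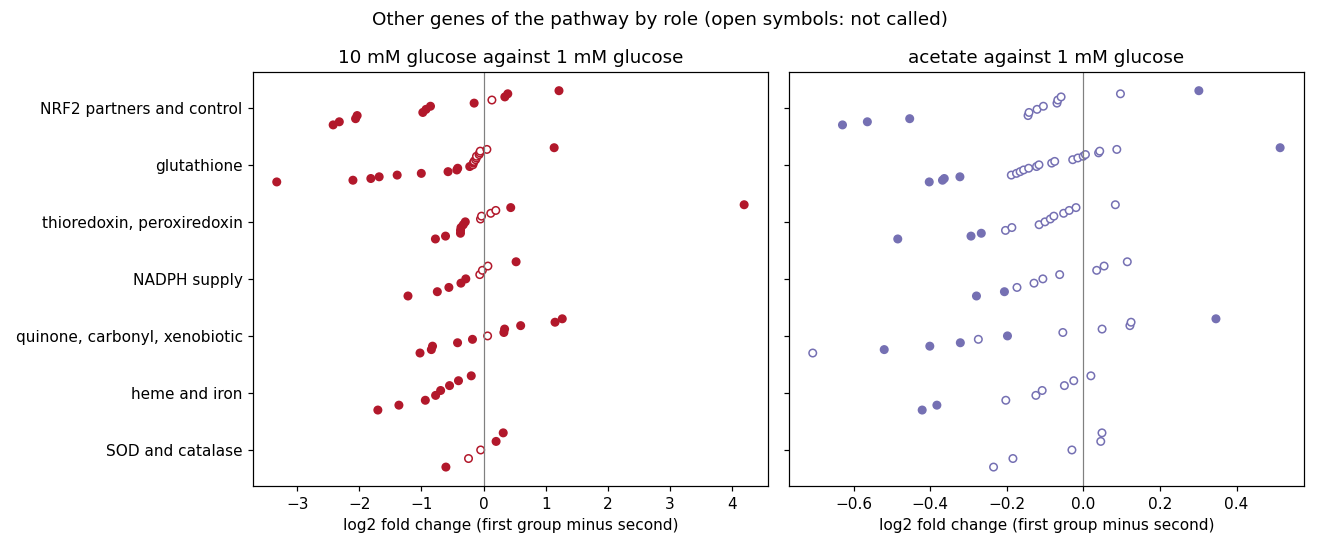
Log2 fold change (x axis) of the other pathway genes, 1 point per gene, by list (y axis), for 10 mM against 1 mM glucose on the left and acetate against 1 mM glucose on the right, with different x scales. Filled points were called. All 8 heme and iron genes lie left of 0 for glucose, and the quinone and carbonyl list has 5 lower and 5 higher.

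In the thioredoxin and peroxiredoxin list 7 of 13 genes were lower and 2 higher at 10 mM glucose (median −0.29), a share called near the 67.5% of all genes. TXN, thioredoxin itself, averaged 139 ± 7.94 CPM at 10 mM glucose and 212 ± 20.4 CPM at 1 mM glucose (SD, n = 4), a log2 fold change of −0.61. PRDX5 fell by 0.78, mitochondrial PRDX3 rose by 0.44, and TXNIP, which binds thioredoxin and is induced by glucose, rose 18.3-fold. PRDX1 had −0.03 ± 0.07 (edgeR adjusted p = 0.694), with a positive sign under 5 alternatives. With acetate (median −0.10), against 13.7% of all genes called, 3 of the 13 were lower, MSRA (−0.48 ± 0.08), PRDX1 (−0.29 ± 0.07) and TXNIP (−0.27 ± 0.08, edgeR adjusted p = 0.0495). The TXNIP call ended under most alternatives, among them the omission of any 10 mM or acetate library and of 1 mM replicate 2 or 4. The count was 1 without acetate replicate 3 or 4, where the calls over all genes fell from 1980 to 1318 and 1196.

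NADPH is consumed by GSR and TXNRD1. Of 9 genes linked to its supply, some of them indirectly, 5 were lower and 1 higher at 10 mM glucose (median −0.29). The share called was again near the 67.5% of all genes. IDH1, the cytosolic isocitrate dehydrogenase, fell by 1.22 and malic enzyme ME1 by 0.74 on the log2 scale, and the mitochondrial transhydrogenase NNT rose by 0.52. With acetate (median −0.11), against 13.7% of all genes called, PGD (−0.21) and TALDO1 (−0.28) were called lower. Only 1 of them was called without acetate replicate 3 or 4, and neither with only the 8 libraries compared. Calls over all genes fell from 1980 to 1318, 1196 and 1056 in these fits.

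Of 9 heme and iron genes all 8 tested were lower at 10 mM glucose (median −0.73), against 33.8% of all genes. The ferritin chains FTL (−1.70 ± 0.12, SE, edgeR adjusted p = 1.0e-08) and FTH1 (−1.36 ± 0.10, adjusted p = 1.1e-08) led the list, and FECH, which inserts iron into heme, fell by 0.69. Both ferritin genes have many processed pseudogenes, so their levels are uncertain. HMOX2, the constitutive heme oxygenase, fell by 0.55. With acetate (median −0.12), against 7.09% of all genes, FTL (−0.42) and FTH1 (−0.38) were called lower. Of the list, 0 were called without acetate replicate 3 or 4, and 1 without 1 mM replicate 1 or acetate replicate 2. Calls over all genes fell from 1980 to 1318, 1196, 1294 and 1358 in these fits, in the order named.

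Quinone, carbonyl and xenobiotic enzymes are the list nearest to NQO1 in function. Of 11 tested of 12, 5 were lower and 5 higher at 10 mM glucose (median 0.06), an even split like that of all genes (33.8% lower and 33.7% higher). UGDH, which makes UDP-glucuronate, fell by 1.02, and NQO2, the relative of NQO1, by 0.84 on the log2 scale. The carbonyl reductase CBR3 rose by 1.27 ± 0.10 and AKR1C3 by 1.15 ± 0.10 (SE). AKR1C1 rose by 0.33 at 10 mM glucose, a call lost once the length and GC trend was taken out (edgeR adjusted p = 0.148), and it fell by 0.40 with acetate. Reads of the AKR1C genes, which are near-identical, may be split among them. With acetate (median −0.20), against 13.7% of all genes called, 4 of the 11 were lower and PTGR1 higher (0.35), and NQO2 (−0.52 ± 0.10) and EPHX1 (−0.32 ± 0.08) were among the lower ones.

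The list of superoxide dismutases and catalase, which also holds CCS, gave 1 of 5 lower and 2 higher at 10 mM glucose (median −0.05). That share called lies near the 67.5% of all genes. CAT rose by 0.20 and SOD2 by 0.32 on the log2 scale, a call lost with the length and GC trend removed (edgeR adjusted p = 0.341). SOD1 had −0.05 ± 0.09 (adjusted p = 0.641). With acetate edgeR, DESeq2 and limma-voom each called 0 of the 5 at an adjusted p under 0.05, against 13.7% of all genes in edgeR. Before adjustment, 1 of the 5, SOD1, was under 0.05 in edgeR. Without acetate replicate 1 edgeR called 1 of the 5, and 2956 of all genes, against 1980 with that library.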

How the data were processed

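RNA-seq counts were measured in 12 libraries of LN229 cells. The authors deposited raw counts per RefSeq transcript, on hg19 per the submitters' processing notes. Aligner, counter and strand setting: not given in the sources used here. 1 transcript per gene was taken, and 14416 of 22257 genes passed edgeR's filter on low counts. Library totals were 24.4 to 27.2 M counts. Counts were TMM-scaled and fitted with 3 group means in edgeR 4.0.16 (R 4.3.3), by the quasi-likelihood test with Benjamini-Hochberg adjustment at 0.05. Levels per kb used transcript lengths from an annotation matched by accession. The procedure was tested on simulated data with 14416 genes and changes placed in the acetate group. It recovered 46.7% of genes changed by 0.32 on the log2 scale and 96% of those changed 1.5-fold, and 4.1% of all calls were false. Over 3 sets together each size of change was given to 150 genes, while 1980 genes were called with acetate in the data. The changed genes averaged at least 5 CPM, and the simulated libraries had no length trend and no glucose effect. These shares may therefore not hold for the measured libraries. The acetate values of GCLC, NQO1, GSR, NFE2L2 and KEAP1 are smaller than 0.32. The members and lists were chosen with earlier results of these data known. From each list the 3 called genes with the smallest p in the glucose and in the acetate comparison were named, beside SLC7A11, SQSTM1, BACH1, MAFF, MAFG, TXN, TXNIP, PRDX1, FTH1 and FTL, and other list genes named were chosen after their values were seen. 1 further gene of that rule is not reported here. The alternatives were other scalings, tests, filters, transcripts, a length and GC trend, a replicate block and leaving out libraries, with DESeq2 1.42.0 and limma 3.58.1 among them.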

Additional observations from a re-analysis of the deposited data

Results flagged for a closer look

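In 3 of the 30 combinations of gene and group, 1 library lay far from the other 3, by a gap over range above Dixon's 95% critical value for 4 samples. A small share of groups passes that value by chance. GCLM in 1 mM glucose had a gap of 0.834 of the range, from replicate 3 at 103 CPM. GCLC in 1 mM glucose had a gap of 0.847, again from replicate 3, at 59 CPM. NQO1 in 10 mM glucose had a gap of 0.865, from replicate 2 at 689 CPM, in a group that spanned 689 to 713 CPM. 1 mM replicate 3 is also a library whose deviations ran with transcript length (Spearman −0.491), and the part of that trend in the GCLM and GCLC values was not tested. Without 1 mM replicate 3 the 1 mM mean was 142 ± 3.46 CPM for GCLM and 69.4 ± 1.01 CPM for GCLC (SD, n = 3).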

How the results depend on the processing

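Of 750 values of the 10 genes under 25 alternatives, 728 kept their direction and their side of the threshold, 18 lost a call, 1 gained one and 3 changed sign. Among other named genes, 2413 of 2538 values kept both, and 28 of 525 list counts moved by over 1.5 times. All genes called with acetate numbered 1980, against 1056 with only the 8 libraries compared, 3728 without both libraries that stood apart, 3911 after removal of a length and GC trend, 3550 with that and the replicate block, and 1196 to 2956 when leaving out 1 library. For 10 mM against 1 mM glucose, KEAP1 changed sign with library totals (0.122) and without both libraries that stood apart (0.0455), and ran from −0.0831 to 0.0456 (without 1 mM replicate 3) when leaving out 1 library. PRDX1 had 0.107 with library totals, 0.0161 without both libraries, 0.157 and 0.156 with the trend removed without and with the block (both called), and −0.0731 to 0.0162 when leaving out 1. For acetate, leaving out 1 library gave BACH1 −0.179 to 0.0408, SLC7A11 −0.252 to 0.0150 and CBR3 −0.0293 to 0.165, each turned by 1 mM replicate 2. It gave IDH1 −0.0207 to 0.0878, PRDX5 −0.163 to 0.0181 and SOD2 −0.0133 to 0.119. FECH had 0.0130 with library totals, and IDH1 −0.0646 without both libraries. With the trend removed, without and with the block, PRDX5 had 0.0071 and 0.0060 and SOD2 −0.0540 and −0.0549. The cause of these moves was not tested. With the replicate block 9613 genes were called for 10 mM against 1 mM glucose, 1780 for acetate and 8899 for 10 mM glucose against acetate, and 9, 9 and 10 of the members. The replicate numbers were not taken to pair the libraries. Same-numbered libraries had r from −0.365 to 0.27, with 3 of 12 pairs over 0.1. In 9 of 24 pairings of a library with another group the closest library there had its own number. The lowest r involves 1 mM replicate 3, which stood apart by its length trend, so these values cannot settle whether the numbers pair.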
